A study of Homo sapiens with 6 samples.

Results

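RNA of 41 genes that encode proteins of the actin cytoskeleton and of focal adhesions was followed in A673 cells, an established line from Ewing sarcoma, a tumour driven by the EWSR1-FLI1 fusion. The members were chosen by gene symbol, and all 41 were found among the 25268 symbols of the table. They comprise 3 actins, 6 chains of myosin II, 10 regulators of the actin thin filament, 7 crosslinkers, 8 focal adhesion proteins and 7 proteins of filament assembly and turnover. Each library came from A673 cells harvested 72 h after transfection with an esiRNA, a pool of short interfering RNAs. The esiRNA was directed against GFP, which the labels call the non-targeting control (esiGFP), against FLI1, to lower the EWS-FLI1 fusion (esiFLI1), or against USP9X, a deubiquitinase (esiUSP9X). Each group had 2 libraries, the cells are 1 line with no untransfected group, and the labels do not say that the replicates were separate cultures, so a p-value here speaks of the spread among these libraries, which may be technical. Levels are FPKM (read fragments per length of transcript and per size of library), which are scaled for transcript length. Comparisons between genes are approximate, because effects of base composition and of reads shared between gene copies may remain. In whole-culture RNA, fewer cells of a type and less RNA per cell cannot be told apart.

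Actin monomers assemble into filaments that myosin II motors pull against one another. Tropomyosins, caldesmon, calponins and transgelins lie along the filament and govern access of the motor, while alpha-actinins, filamins, plastins and fascin tie filaments into bundles and networks. Vinculin, talin, zyxin and paxillin couple the filament to integrins at focal adhesions, and profilins, cofilins and Ena/VASP proteins set the rate at which filaments grow and turn over. Many of these proteins exist as a broadly expressed form and a form typical of smooth muscle and of spread, contractile fibroblasts. Serum response factor (SRF), with its actin-sensing MRTF coactivators, is a known regulator of many genes of this kind.

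Each target was lower in the cells given its esiRNA. FLI1 was 24.1 and 36.4 FPKM in esiGFP, against 12.7 and 14.1 in esiFLI1, and USP9X was 20.6 and 26.5 in esiGFP and 5.31 and 7.10 in esiUSP9X. Both falls were called by limma only when the replicate number was added to the fit as a block (blocked adjusted p = 4.4e-04 and 4.5e-04; 0.13 and 1 without it). FLI1 was 25 and 31.9 FPKM in esiUSP9X, within its range in esiGFP, and USP9X was 26.2 and 37.7 in esiFLI1. There limma called USP9X higher by 0.41 with the block (adjusted p = 0.013; 0.60 unblocked), though its groups overlapped. Of 10 Ewing sarcoma markers 9 were measured above the filter, with a summed level of 919 to 977 FPKM in esiGFP, 417 to 449 in esiFLI1 and 929 to 939.8 in esiUSP9X. The marker CD99 was listed at 0 in every library, and in a table without read counts such a 0 can be a failed estimate. Depth is unknown because the table holds no read counts. Throughout, a gene is called at a Benjamini-Hochberg adjusted p under 0.05 over 12169 genes, in limma's fit of log2(FPKM + 1) without a block or, where stated, with the replicate block. Changes are differences of mean log2(FPKM + 1), a scale that compresses the change of a gene at low FPKM.

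The 41 genes spanned a wide range of levels in the control, and 41 of 41 passed the filter of 1 FPKM in 2 libraries. No member was listed at 0 in any library. ACTB, the beta-actin of non-muscle cells, was the highest member, at 2515 and 2208 FPKM in esiGFP, 2092 and 1688 in esiFLI1 and 1998 and 1830.2 in esiUSP9X. CNN1, the calponin of smooth muscle, was the lowest, at 0.512 and 0.126 FPKM in esiGFP. In the control ACTA2, the actin of smooth muscle, made up 1.60% and 2.02% of actin FPKM in the esiGFP libraries, and MYL9, the matching regulatory light chain, 0.23% and 0.268% of its family.

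**Figure D1:**
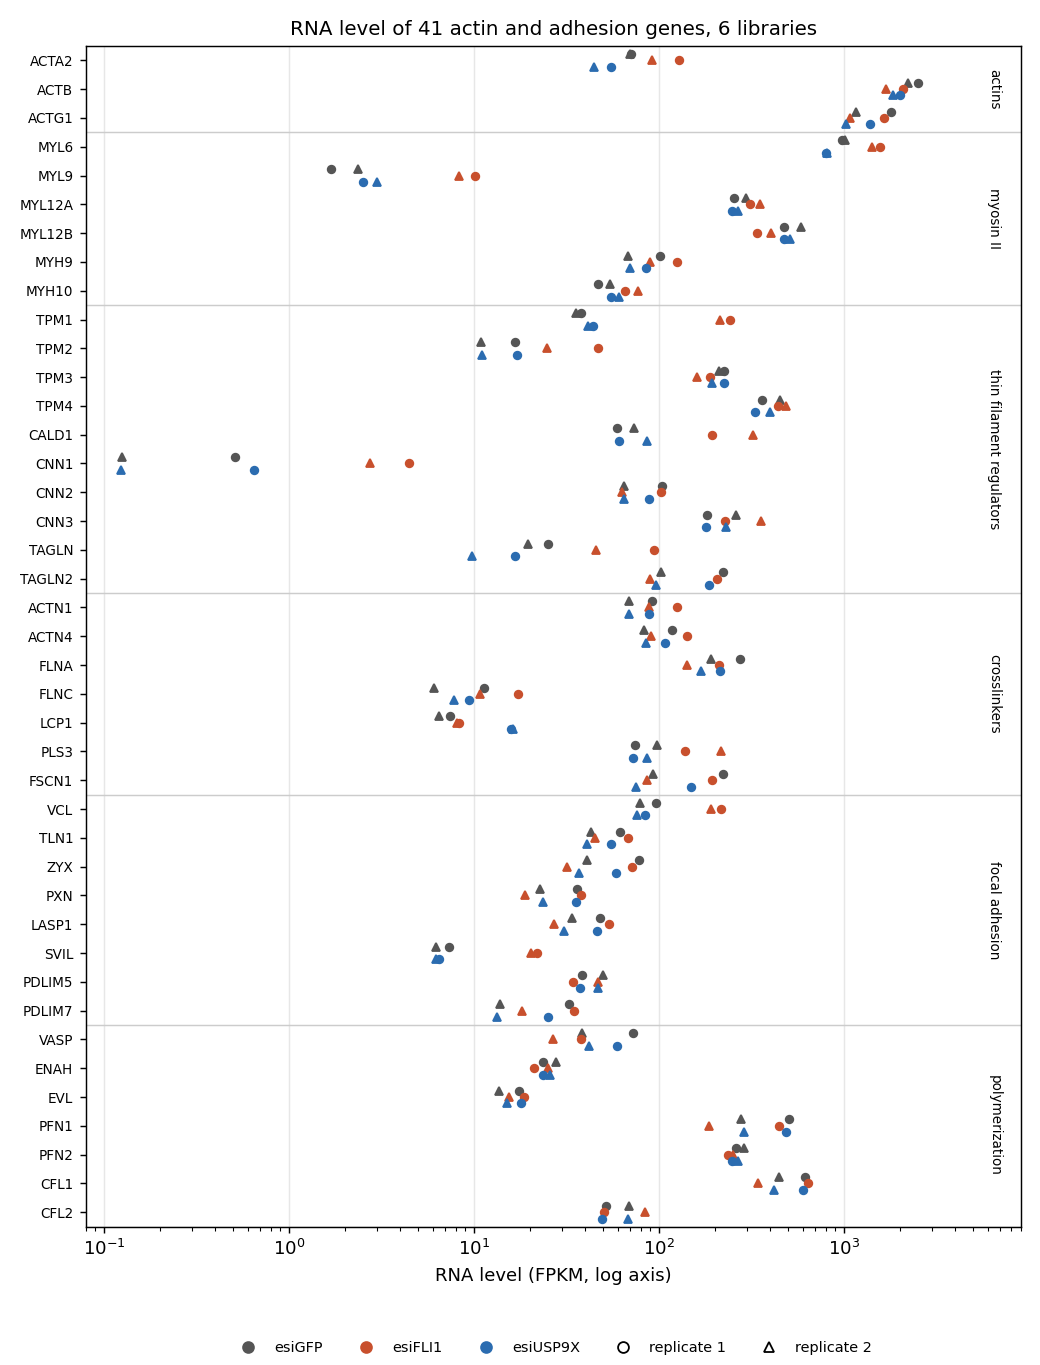
RNA level of each of the 41 genes in FPKM (log axis), ordered by role, with 1 point for each library (circles replicate 1, triangles replicate 2; grey esiGFP, red esiFLI1, blue esiUSP9X). The esiFLI1 points of TPM1, CALD1, MYL9, CNN1, SVIL and VCL lie to the right of the other 4 libraries, and the blue points of LCP1 lie to the right of its other 4.

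The comparison of esiFLI1 with esiGFP addresses which of these genes differed 72 h after the esiRNA against FLI1. Direct, later and off-target effects of this esiRNA cannot be told apart here. TPM1, MYL9, SVIL and VCL rose in both fits. With the block CALD1, TAGLN, TPM2 and PLS3 also rose by over 1 on the log2 scale, and VASP and MYL12B fell. Without a block 4 of 41 members rose (9.76%) and 0 fell, where 2.58% of all tested genes rose and 0.23% fell. With the replicate block 17 rose (41.5%) and 5 fell (12.2%), against 20.6% and 21.6% of all tested genes. The median log2 change of the members was 0.20, with 0.14 in the first replicates and 0.17 in the second, against -0.03 over all tested genes. In 14 members (34.1%) both esiFLI1 libraries lay above both esiGFP libraries, and in 5 (12.2%) both lay below, where 19.8% and 17.3% of all tested genes did so. One of the 17, CNN1, passed the filter only through the esiFLI1 libraries, so it had to differ, and 16 of the other 40 rose with the block. Leaving out 1 library reduced the 4 rises without a block to 0 or 1, and changed the blocked counts to between 12 (without esiFLI1 1) and 16 rises and between 2 (without esiFLI1 2) and 4 falls.

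Among the thin filament regulators, TPM1, a tropomyosin of stress fibres, had the largest change on the log2(FPKM + 1) scale. TPM1 was 37.7 and 35.5 FPKM in esiGFP, 243 and 213 in esiFLI1, and 44.3 and 41.2 in esiUSP9X. Both esiFLI1 libraries stood clear of the other 4, and the log2 change was 2.60 (SE 0.17, adjusted p = 0.0075; blocked 3.6e-06). The call without a block ended without esiGFP 1 or esiGFP 2, and in a fit of only the 4 libraries compared. The blocked call did not end when any single library was left out. CALD1, caldesmon, which binds actin, tropomyosin and myosin, was 59.7 and 73.6 FPKM in esiGFP, 193 and 323 in esiFLI1, and 60.6 and 85.9 in esiUSP9X. Its esiFLI1 libraries were again the 2 highest, though they differed from each other, and it rose by 1.90 with the block (SE 0.12, adjusted p = 3.7e-05; SE 0.33, adjusted p = 0.057 without a block). TAGLN, transgelin, an actin-binding protein of smooth muscle, was 25.0 and 19.7 FPKM in esiGFP, 94.4 and 45.7 in esiFLI1, and 16.7 and 9.76 in esiUSP9X. It rose by 1.52 with the block (SE 0.16, adjusted p = 3.3e-04; 0.17 unblocked).

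TPM2, a tropomyosin abundant in muscle, was 16.6 and 10.9 FPKM in esiGFP, 46.7 and 24.8 in esiFLI1, and 17.1 and 11.1 in esiUSP9X. The groups did not overlap, and TPM2 rose by 1.27 with the block (SE 0.11, adjusted p = 1.7e-04; 0.22 unblocked). CNN1 was 4.48 and 2.73 FPKM in esiFLI1, and 0.644 and 0.124 in esiUSP9X, beside the control values above. Since the filter fixed its direction, its change is given with no test. It was 1.79 on the log2(FPKM + 1) scale and 3.27 with a pseudocount of 0.1 FPKM, where TPM1 had 2.63. CNN3, the calponin of non-muscle cells, was 182 and 259.5 FPKM in esiGFP, against 228 and 357 in esiFLI1, which overlap. It rose by 0.39 with the block (adjusted p = 0.020), a call that ended without esiGFP 1 (0.050), esiGFP 2 (0.058) or esiFLI1 2 (0.13). TPM3, a broadly expressed tropomyosin, was 225 and 211 FPKM in esiGFP, against 188 and 161 in esiFLI1, and fell by 0.32 with the block (adjusted p = 0.030). This call ended with any 1 of the 6 libraries left out, with adjusted p of 0.051 (without esiGFP 1) to 0.27 (without esiGFP 2). It also ended under quantile normalization, which brought the change to -0.17 (blocked adjusted p = 0.17), and TPM3 is a gene with processed pseudogenes, so its value is uncertain.

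TPM4, the highest of the 10, was 359 and 452 FPKM in esiGFP, 438 and 486 in esiFLI1, and 329 and 400.2 in esiUSP9X. Its groups overlapped in the first comparison (log2 change 0.20, adjusted p = 0.77; blocked 0.15). CNN2 and TAGLN2, the broadly expressed calponin and transgelin, had log2 changes of -0.03 and -0.15 (adjusted p = 0.99 and 0.95; blocked 0.86 and 0.28), with blocked 95% intervals of -0.27 to 0.22 and -0.38 to 0.09. CNN2 turned to 0.12 under quantile normalization. Of the 10 thin filament regulators, 1 rose and 0 fell without a block and 6 rose and 1 fell with it, with a median change of 0.83. With the block that is 60% higher and 10% lower, where 20.6% and 21.6% of all tested genes were. Without a block it is 10% higher, where 2.58% of all were. Without CNN1 5 of 9 rose with the block and the median was 0.39.

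Within myosin II the light chains moved apart. MYL9, the regulatory light chain of smooth muscle, was 1.69 and 2.37 FPKM in esiGFP, 10.2 and 8.32 in esiFLI1, and 2.53 and 2.98 in esiUSP9X. The lower esiFLI1 library was above every library of the other groups, and MYL9 rose by 1.77 (SE 0.21, adjusted p = 0.025; blocked 1.5e-04). MYL6, the essential light chain, was 976 and 1011 FPKM in esiGFP, 1559.6 and 1419 in esiFLI1, and 798 and 812 in esiUSP9X. The 3 groups did not overlap, and MYL6 rose by 0.58 with the block (SE 0.11, adjusted p = 0.0038; 0.15 unblocked). MYL12B, a regulatory light chain of non-muscle cells, was 477 and 589 FPKM in esiGFP, 341 and 401 in esiFLI1, and 476 and 512 in esiUSP9X. Both esiFLI1 libraries were the lowest, and MYL12B fell by 0.52 with the block (SE 0.10, adjusted p = 0.0052; 0.28 unblocked), and by 0.33 with quantile normalization added (adjusted p = 0.028).

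MYL12A, which encodes a protein nearly identical to that of MYL12B, was 256 and 294 FPKM in esiGFP, 312 and 353 in esiFLI1, and 247 and 268 in esiUSP9X. It rose by 0.28 with the block (adjusted p = 0.047), a call that ended with any 1 library left out, with adjusted p of 0.10 (without esiUSP9X 1) to 0.23 (without esiGFP 1), and under median-ratio scaling (0.11). Reads shared between near-identical copies make both values uncertain. Of the heavy chains, which form the motor, MYH10 was 47.1 and 54.2 FPKM in esiGFP, 65.5 and 77.5 in esiFLI1, and 55.2 and 61.1 in esiUSP9X. MYH10 rose by 0.49 with the block without overlap of the groups (SE 0.09, adjusted p = 0.0047; 0.30 unblocked). MYH9 was 101 and 67.9 FPKM in esiGFP, 125 and 89.9 in esiFLI1, and 84.7 and 69.9 in esiUSP9X, with overlap. Its blocked rise of 0.35 (adjusted p = 0.031) ended without esiGFP 2 (0.30), esiFLI1 1 (0.13) or esiFLI1 2 (0.12), and under median-ratio scaling (0.065). Of the 6 myosin II chains 1 rose without a block, and 5 rose and 1 fell with it. With the block that is 83.3% higher and 16.7% lower, where 20.6% and 21.6% of all tested genes were. Without a block it is 16.7% higher, where 2.58% of all were. The call of MYL9 without a block ended when any 1 library was left out, with adjusted p from 0.073 (without esiFLI1 2) to 0.16 (without esiGFP 1), and in a fit of only the 4 libraries compared (0.098).

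The actins did not move together. ACTA2 was 70.3 and 69.5 FPKM in esiGFP, 129 and 91.9 in esiFLI1, and 54.9 and 44.7 in esiUSP9X. Its esiFLI1 libraries were the highest and its esiUSP9X libraries the lowest, and it rose in esiFLI1 by 0.63 with the block (SE 0.12, adjusted p = 0.0055; 0.28 unblocked), a call that ended without esiFLI1 1 (0.056). ACTB, with the values above, fell by 0.33 with the block (SE 0.11, adjusted p = 0.042; 0.52 unblocked). That call ended with any 1 library left out, with adjusted p of 0.051 (without esiGFP 1) to 0.20 (without esiFLI1 2), and quantile normalization brought the change to -0.04 (blocked adjusted p = 0.72). ACTG1, the gamma-actin of non-muscle cells, was 1795 and 1161 FPKM in esiGFP, against 1639.5 and 1081 in esiFLI1, a change of -0.12 that turned to 0.08 under quantile normalization (adjusted p = 0.93; blocked 0.41). Actin genes have many processed pseudogenes and near-identical copies, so these values are uncertain.

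Among the crosslinkers, PLS3, T-plastin, which bundles actin, was 73.8 and 97.3 FPKM in esiGFP, 139 and 216 in esiFLI1, and 72.1 and 86.5 in esiUSP9X. Both esiFLI1 libraries exceeded the other 4, and PLS3 rose by 1.02 with the block (SE 0.11, adjusted p = 4.4e-04; 0.17 unblocked). FLNC, the filamin of muscle, was 11.3 and 6.11 FPKM in esiGFP, 17.3 and 10.8 in esiFLI1, and 9.35 and 7.76 in esiUSP9X. FLNA, the broadly expressed filamin, was 273 and 191 FPKM in esiGFP, 212 and 142 in esiFLI1, and 213 and 168 in esiUSP9X. The filamins thus moved in opposite directions with the block, by 0.66 for FLNC (adjusted p = 0.0078) and -0.40 for FLNA (adjusted p = 0.017), with overlapping groups in each and no call without a block (0.50 and 0.65). The FLNC call ended without esiFLI1 1 (0.084) or esiFLI1 2 (0.069), and the FLNA call without esiGFP 1 (0.067) or esiFLI1 2 (0.11) and under quantile normalization (0.063).

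ACTN1, an alpha-actinin of stress fibres and adhesions, was 91.4 and 69.0 FPKM in esiGFP, 126 and 88.4 in esiFLI1, and 88.6 and 69.0 in esiUSP9X. It rose by 0.41 with the block (adjusted p = 0.011; 0.60 unblocked), which ended without esiGFP 1 (0.059) or esiFLI1 1 (0.062). ACTN4 (0.21), FSCN1, fascin (-0.16), and LCP1, L-plastin (0.21), were called in neither fit. Of the 7 crosslinkers 0 were called without a block and 1 had an unadjusted p under 0.05, where 1923 of 12169 tested genes did. The median change was 0.21, and 3 rose and 1 fell with the block. With the block that is 42.9% higher and 14.3% lower, where 20.6% and 21.6% of all tested genes were.

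Of the 8 focal adhesion members 2 rose in esiFLI1 in both fits and 0 fell. These are 25.0% of the group, near the 20.6% of all tested genes that rose with the block and above the 2.58% without it. VCL, vinculin, which links talin to actin, was 96.6 and 79.0 FPKM in esiGFP, 217 and 190.2 in esiFLI1, and 83.8 and 76.0 in esiUSP9X. It rose by 1.21 (SE 0.19, adjusted p = 0.047; blocked 9.2e-05). SVIL, supervillin, which ties actin and myosin II to the membrane, was 7.29 and 6.21 FPKM in esiGFP, 21.8 and 20.3 in esiFLI1, and 6.46 and 6.27 in esiUSP9X. It rose by 1.51 (SE 0.18, adjusted p = 0.025; blocked 5.0e-05), and for both genes the esiFLI1 libraries stood apart from the other 4. Leaving out any 1 library ended both calls without a block, with adjusted p of 0.14 (without esiFLI1 2) to 0.29 (without esiGFP 2) for VCL and 0.10 (without esiFLI1 2) to 0.22 (without esiGFP 2) for SVIL, while neither blocked call ended. The unblocked call of VCL also ended with a pseudocount of 0.1 FPKM (0.050), with a filter of 5 FPKM (0.066) and in a fit of only the 4 libraries compared (0.17), and that of SVIL in the last of these (0.12). TLN1, talin, which joins integrins to actin (0.11), ZYX, zyxin (-0.24), PXN, paxillin (-0.10), LASP1 (-0.08), PDLIM5 (-0.12) and PDLIM7 (0.23) were called in neither fit. LASP1 turned to 0.01 under quantile normalization. The blocked 95% intervals of these 6 lay between -0.53 (ZYX) and 0.49 (PDLIM7). The median change over the 8 was 0.01.

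Of the 7 proteins of filament assembly, 1 fell and 0 rose with the block, and none was called without it (0 genes, and 0 with an unadjusted p under 0.05). Without the block 1923 of 12169 tested genes had such a p. The 1 that fell is 14.3% of the group, where 21.6% of all tested genes fell with the block. VASP, which promotes filament growth at adhesions and the cell edge, was 72.6 and 38.6 FPKM in esiGFP, 38.1 and 26.6 in esiFLI1, and 59.5 and 41.7 in esiUSP9X. Both esiFLI1 libraries were below all others, by a narrow margin, and VASP fell by 0.72 with the block (SE 0.12, adjusted p = 0.0030; 0.49 unblocked). With the block and 1 library left out its change was -0.91 to -0.52 and stayed called. Without a block it was -0.27 without esiGFP 1, -1.16 without esiGFP 2 and -0.47 without esiFLI1 2, and not called. ENAH and EVL, the other members of its family, had changes of -0.14 and 0.13 (blocked adjusted p = 0.27 and 0.31). CFL1, cofilin, which severs filaments, was the highest of the 7, at 615 and 443 FPKM in esiGFP, 638 and 342 in esiFLI1, and 601 and 421 in esiUSP9X. Its replicates differed by more than its groups, with a change of -0.16 that turned to 0.02 under quantile normalization (blocked adjusted p = 0.34). PFN1 (-0.38) and PFN2 (-0.17), profilins that deliver actin monomers, and CFL2, the cofilin of muscle (0.13), were called in neither fit (blocked adjusted p = 0.052, 0.18 and 0.37). PFN2 lay below both control libraries in both esiFLI1 libraries. The median change over the 7 was -0.16. CFL1 and PFN1 have processed pseudogenes and are uncertain.

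**Figure D2:**
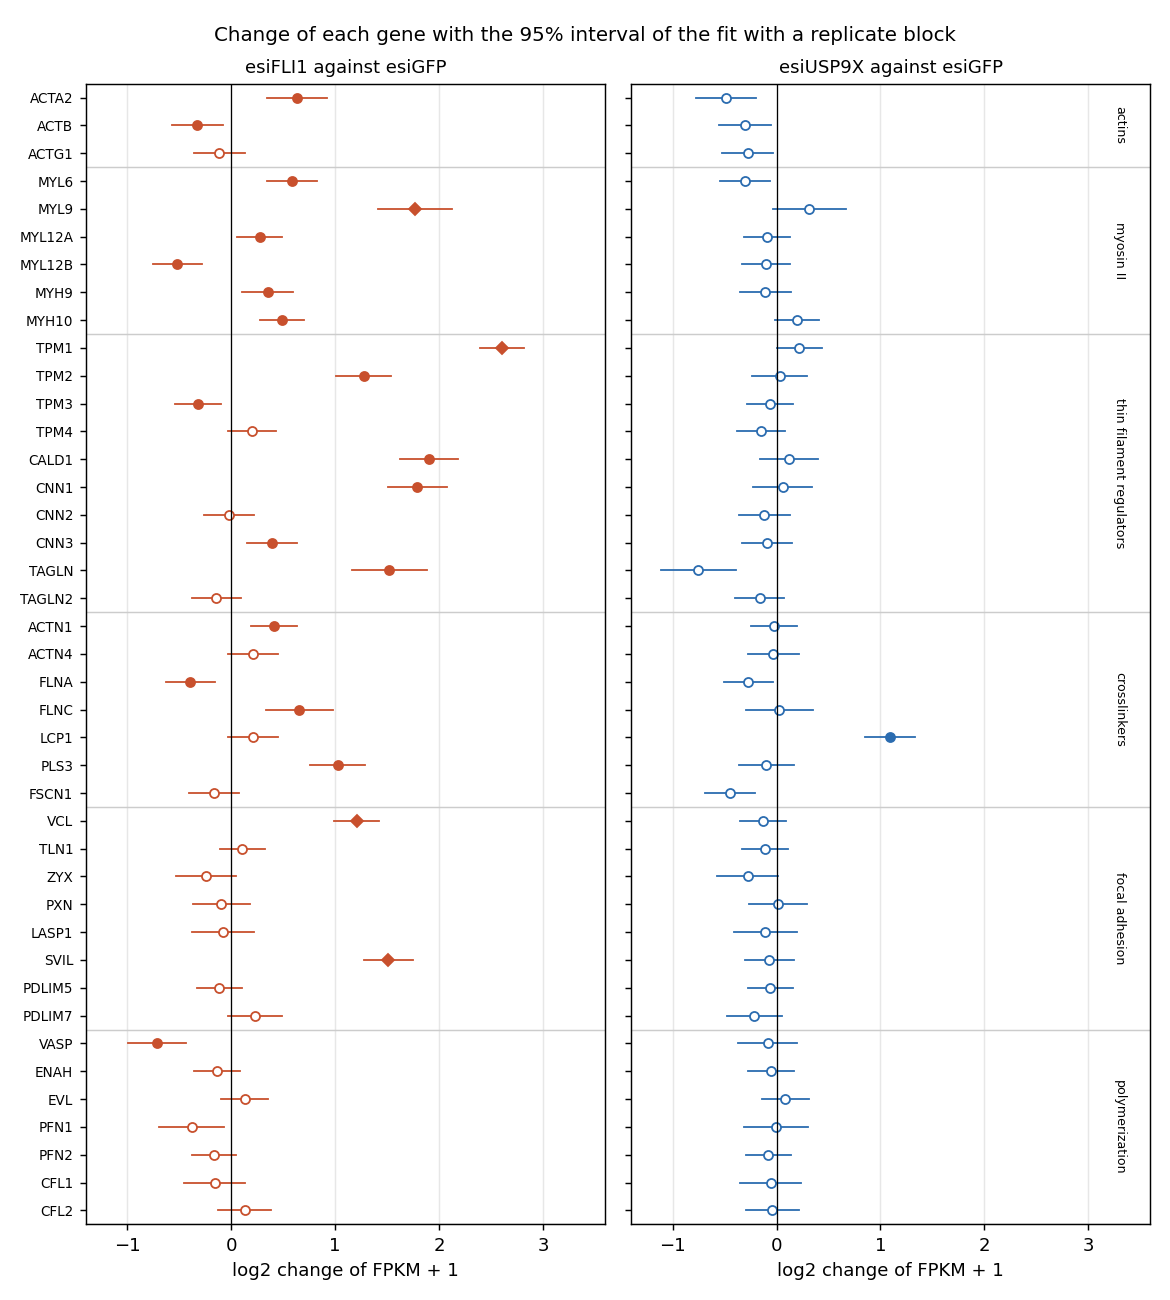
Change of each gene (log2 of FPKM + 1) in esiFLI1 (left, red) and esiUSP9X (right, blue) against the same esiGFP libraries, with bars for the 95% interval of the fit with the replicate block. Filled points were called in that fit and diamonds also without a block. On the left 22 points are filled, from VASP at -0.72 to TPM1 at 2.60, and on the right 1, LCP1 at 1.09. CNN1 is among the 22, but the filter fixed its direction there, so its filled point is no test.

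Within a family, shares of summed FPKM do not move with the scaling of a library. TPM1 made up 5.91% and 5.0% of tropomyosin FPKM in esiGFP, 26.5% and 24.1% in esiFLI1, and 7.18% and 6.39% in esiUSP9X, while the share of TPM3 was 35.2% and 29.8%, 20.5% and 18.2%, and 36.7% and 29.9%. The sum of the 4 tropomyosins was 638 and 709.6 FPKM in esiGFP, against 916 and 885 in esiFLI1. TAGLN made up 10.1% and 16.3% of transgelin FPKM in esiGFP, 31.4% and 33.9% in esiFLI1, and 8.18% and 9.20% in esiUSP9X. For TPM1, TPM3 and TAGLN the shares in esiFLI1 lay outside the range of the other 4 libraries. Those of TPM4 overlapped, at 47.8% and 54.9% in esiFLI1 beside 53.4% and 62% in esiUSP9X.

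The regulatory light chains shifted from MYL12B, at 65.0% and 66.6% in esiGFP, 51.4% and 52.6% in esiFLI1, and 65.6% and 65.4% in esiUSP9X, to MYL12A, at 34.8% and 33.2%, 47.0% and 46.3%, and 34.0% and 34.2%. The esiFLI1 mean differed from the esiGFP mean by 12.7 percentage points for MYL12A and by -13.8 for MYL12B, far more than the replicates did. Reads shared between these near-identical copies make both shares uncertain. FLNC made up 3.96% and 3.10% of filamin FPKM in esiGFP, 7.54% and 7.11% in esiFLI1, and 4.2% and 4.42% in esiUSP9X. ACTA2 took 3.33% and 3.21% of actin FPKM in esiFLI1, beside 1.60% and 1.54% in esiUSP9X. In the cofilins, CFL1 had 92.3% and 86.5% in esiGFP and 92.7% and 80.2% in esiFLI1, so the replicates differed more than the groups. An exact two-sided permutation test of 2 libraries against 2 cannot give a p below 0.333, which is the value for TPM1, TPM3, TAGLN, MYL12A, MYL12B, FLNC and ACTA2.

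**Figure D3:**
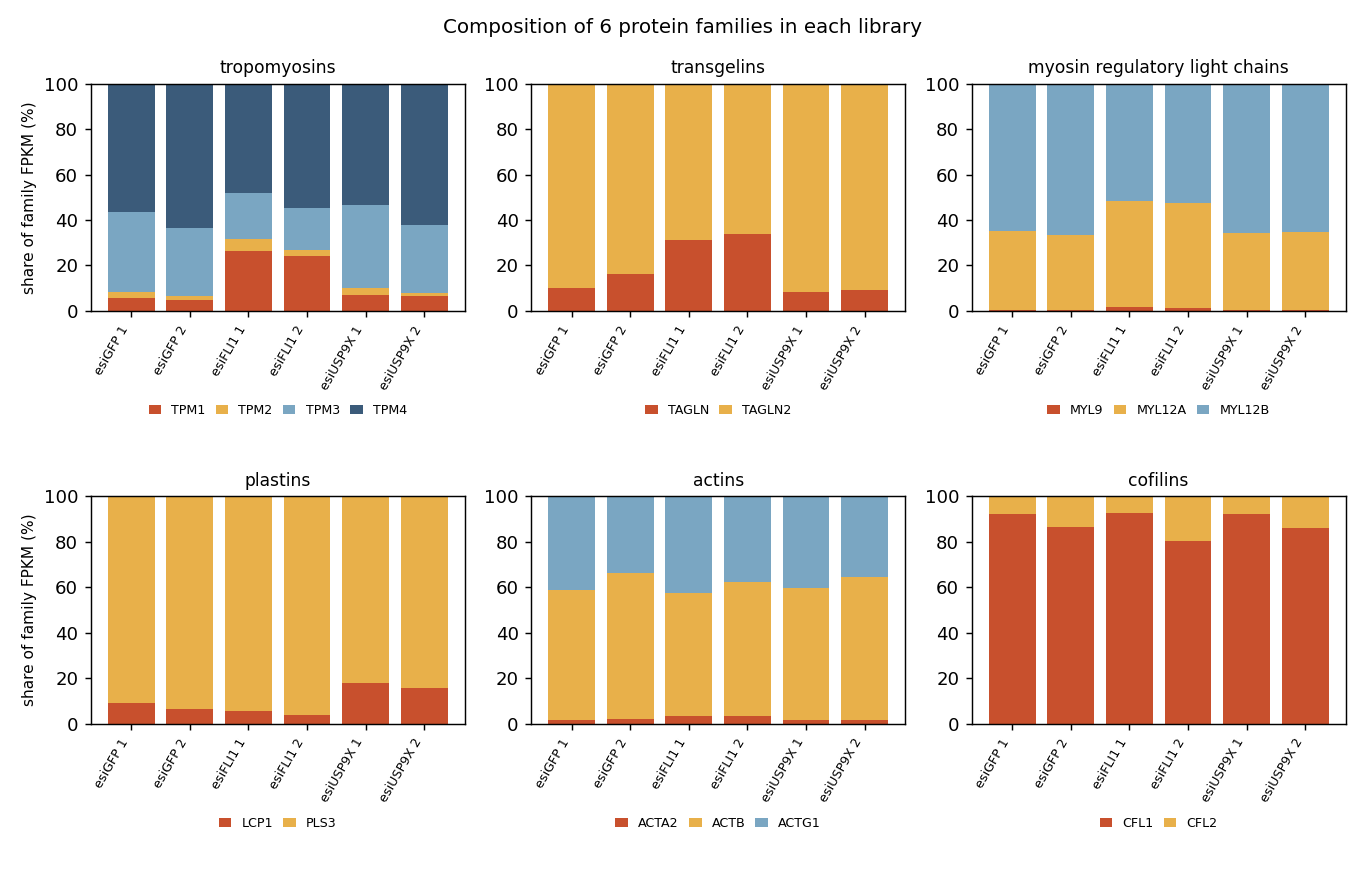
Share of each gene in the summed FPKM of its protein family (percent), 1 bar for each library, for 6 families. TPM1, TAGLN and MYL12A take larger shares in both esiFLI1 bars than in the other 4, LCP1 takes its largest shares in the esiUSP9X bars (18.0% and 15.8%), and the cofilin bars differ by replicate number.

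Start-site windows of RefSeq (GRCh38.p14, 250 bases before to 50 after the start) were searched for the CArG box, the element that SRF binds, because SRF is known to act on genes of this kind. Windows were found for 36 of the 41 members (62 windows), and ACTB, FSCN1, MYL9, PFN2 and TAGLN had no entry. A box, whose pattern reads alike on both strands, was present in 6 member windows (9.68%), each of a different gene, and in 1.29% of all 35116 windows. The 6 stretches are shown 5′ to 3′ on the strand of the gene, in lower case with the box in capitals, up to 35 bases on each side and ending at the start site.
ACTN1: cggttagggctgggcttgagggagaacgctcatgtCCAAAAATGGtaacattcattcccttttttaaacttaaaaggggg
SVIL: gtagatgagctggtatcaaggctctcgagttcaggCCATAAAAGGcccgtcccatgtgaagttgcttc
TPM4: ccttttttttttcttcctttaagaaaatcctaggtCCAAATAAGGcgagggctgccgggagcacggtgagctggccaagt
CNN2: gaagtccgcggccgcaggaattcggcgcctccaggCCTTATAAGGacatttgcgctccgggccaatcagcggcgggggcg
ACTG1: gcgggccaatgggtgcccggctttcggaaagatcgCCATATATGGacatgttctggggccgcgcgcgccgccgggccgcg
FLNA: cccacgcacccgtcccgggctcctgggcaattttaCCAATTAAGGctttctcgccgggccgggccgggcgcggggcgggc
They lie at chr14:68977693-68977772 (minus strand), chr10:29634972-29635039 (minus strand), chr19:16067330-16067409 (plus strand), chr19:1026484-1026563 (plus strand), chr17:81512849-81512928 (minus strand) and chrX:154374684-154374763 (minus strand). In SVIL the box ends 24 bases before the start, and in ACTN1 and TPM4 162 and 164 bases before it. With the block SVIL and ACTN1 rose in esiFLI1, FLNA fell, and TPM4, CNN2 and ACTG1 were not called. The same windows were searched for the motif GGAAGGAA, a pair of the ETS core that repeats at many EWS-FLI1 sites, on both strands. It was present in 1 window each of ACTN4, CNN3 and MYL12A (4.84% of member windows) and in 3.67% of all windows. A match describes letters in these windows and shows no binding.

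Other genes of the same machinery were counted from lists. Of 20 adhesion adaptors and kinases 19 were tested, and 1 rose and 0 fell without a block (12 and 1 with it), with a median of 0.56. With the block 63.2% of them rose and 5.26% fell, beside 20.6% and 21.6% of all tested genes. PARVA, parvin alpha, which binds actin and integrin-linked kinase, was 3.98 and 4.61 FPKM in esiGFP, against 11.1 and 12.7 in esiFLI1 (1.29, adjusted p = 0.038). TGFB1I1, a paxillin relative also called Hic-5, was 2.58 and 0.792 FPKM in esiGFP, 9.5 and 3.86 in esiFLI1, and 1.32 and 0.623 in esiUSP9X, and rose by 1.5 with the block (adjusted p = 3.7e-04; 0.25 unblocked). NEXN, nexilin, was 0.662 and 0.911 FPKM in esiGFP, 2.97 and 6.3 in esiFLI1, and 0.749 and 1.35 in esiUSP9X. It passed the filter only through esiFLI1 and had to differ, so no test is given, and without it 11 of 18 rose with the block. Of 22 genes for Arp2/3, capping and turnover, 0 were called without a block. There 2 had an unadjusted p under 0.05, where 1923 of 12169 tested genes did. The median was -0.04, and with the block 4 rose and 2 fell (18.2% and 9.09%, where 20.6% and 21.6% of all tested genes did). In that fit GSN, gelsolin, which severs and caps filaments, rose by 1.30, TMSB4X, which holds actin monomers, by 0.92, and CAPZB, a capping subunit, by 0.62 (adjusted p = 2.7e-04, 8.4e-04 and 0.0021). In esiUSP9X against esiGFP 0 genes of these 2 lists were called in either fit. Of all tested genes 0.074% rose and 0.164% fell there with the block, and 0.0247% and 0% without it.

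Most defining markers of muscle were listed at 0 or under 1 FPKM. Of 8 smooth muscle markers 2 passed the filter (SMTN and SYNM), and MYH11, DES, ACTG2, LMOD1 and MYOCD were under 1 FPKM in every library. SYNPO2 was 0.097 and 0.0739 FPKM in esiGFP, 0.801 and 1.06 in esiFLI1, and 0.199 and 0.168 in esiUSP9X. LMOD1 was 0.031 and 0.0194, 0.381 and 0.253, and 0.0615 and 0.0427 FPKM in the same order, so both were highest in esiFLI1, at levels too low to be tested. The summed level of the 8 was 6.32 to 9.89 FPKM in esiGFP, 18.3 to 19.4 in esiFLI1 and 7.66 to 8.11 in esiUSP9X. SYNM, synemin, an intermediate filament protein, held most of this difference, with 2.90 and 3.14 FPKM in esiGFP, against 10.7 and 12.7 in esiFLI1 (log2 change 1.66, adjusted p = 0.023). Of 9 skeletal muscle markers 1 passed, TNNT1, and MYOD1, MYF5 and TNNT3 were listed at 0 in every library, which, as for CD99, cannot be read as low expression. Summed skeletal muscle markers were 4.33 to 7.52 FPKM in esiGFP, 7.15 to 10.0 in esiFLI1 and 7.42 to 9.05 in esiUSP9X. None of the 7 endothelial, 6 epithelial and 7 blood cell markers passed (0 of each), with summed levels of at most 2.36, 0.592 and 0.689 FPKM in any library. The endothelial sum was 0.209 to 1.1 FPKM in esiGFP, 0.911 to 2.36 in esiFLI1 and 0.133 to 0.299 in esiUSP9X. The part of other cell types in the changes of the members was not tested.

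The comparison of esiUSP9X with esiGFP addresses whether loss of USP9X, which acts on the fusion protein in the study's title, moves the same genes. It uses the same esiGFP libraries as the first comparison. One member was called, and only with the block: 1 rose (0.074% of all tested genes rose) and 0 fell (0.164% of all tested genes fell). Without a block limma called 0 members, with 1 at an unadjusted p under 0.05, and 0.0247% of all genes as higher and 0% as lower. Of 12169 tested genes 114 had such an unadjusted p. LCP1, L-plastin, an actin bundler best known from blood cells, was 7.47 and 6.49 FPKM in esiGFP, 8.29 and 8.13 in esiFLI1, and 15.8 and 16.2 in esiUSP9X. Both esiUSP9X libraries stood clear above the other 4, and LCP1 rose by 1.09 with the block (SE 0.10, adjusted p = 0.012; SE 0.18, unadjusted p = 0.0014, adjusted p = 1 without a block). The call ended without esiFLI1 1 (0.11), esiFLI1 2 (0.11), esiUSP9X 1 (0.093) or esiUSP9X 2 (0.15), and in a blocked fit of only the 4 libraries compared (0.11), at the same size. LCP1 made up 9.19% and 6.25% of plastin FPKM in esiGFP, 5.63% and 3.62% in esiFLI1, and 18.0% and 15.8% in esiUSP9X. Markers of blood cells summed to 0.115 to 0.334 FPKM in esiUSP9X, beside 0.218 to 0.327 in esiGFP.

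The genes that rose most in esiFLI1 were picked by that rise, over the same esiGFP libraries. Their values in esiUSP9X are therefore given as a description. The log2 change in esiUSP9X was 0.22 for TPM1 (blocked 95% interval 0.00 to 0.44) and 0.12 for CALD1 (-0.16 to 0.40). It was -0.13 for VCL (-0.35 to 0.09) and -0.07 for SVIL (-0.31 to 0.16). The lowest blocked adjusted p of these genes was 0.45. CNN1 had 0.06, given with no test, at levels under 1 FPKM in both groups. MYL9 had 0.32 (-0.04 to 0.67). TAGLN had the lowest value of the 41, at -0.75 (-1.11 to -0.39, blocked adjusted p = 0.17), and ACTA2 -0.49 (-0.77 to -0.20, 0.25), and in both genes the esiUSP9X libraries were the lowest of the 6. ACTB (-0.30) and MYL6 (-0.30) also lay below the control in both libraries, with blocked adjusted p of 0.38 and 0.37. In 4 members (9.76%) both esiUSP9X libraries lay above both control libraries and in 4 both lay below, where 8.75% and 7.82% of all tested genes did so. The median over the 41 was -0.09, against -0.01 over all tested genes.

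The direct comparison of esiUSP9X with esiFLI1 tests the difference between the knockdowns, and shares its libraries with the comparisons above. Without a block 4 members were lower in esiUSP9X (9.76%, where 2.66% of all tested genes were) and 0 higher (0.419% of all). With the block 19 were lower, CNN1 among them (46.3%, where 20.9% of all were) and 3 higher (7.32%, where 20.2% were). CNN1 passed the filter only through the esiFLI1 libraries, so it had to differ here too. Of the other 40 members, 18 were lower and 3 higher with the block. TPM1 was lower by 2.39 (-2.39, SE 0.17, adjusted p = 0.0078), SVIL by 1.58 (-1.58, SE 0.18, 0.021), MYL9 by 1.45 (-1.45, SE 0.21, 0.039) and VCL by 1.34 (-1.34, SE 0.19, 0.036). TAGLN differed by -2.27 and ACTA2 by -1.12, both called only with the block (adjusted p = 5.0e-05 and 4.2e-04; 0.071 and 0.088 without). The 3 higher with the block were LCP1 (0.89, adjusted p = 5.6e-04), VASP (0.63, 0.0054) and MYL12B (0.42, 0.013). PDLIM7 and TPM4, called in no other comparison, differed by -0.44 and -0.34 with the block (adjusted p = 0.017 and 0.027).

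Several calls in this comparison ended under another setting or without a single library. Without a block, TPM1 lost its call without esiUSP9X 1 (0.12) or esiUSP9X 2 (0.10). MYL9, VCL and SVIL lost theirs with any 1 library left out, with adjusted p up to 0.34, 0.31 and 0.25, and in a fit of only the 4 libraries compared (0.10, 0.089 and 0.073). The MYL9 call also ended with no filter on low values (0.062), a filter of 5 FPKM (0.067) and quantile normalization (0.071). With the block, MYL12B was not called without esiFLI1 1 (0.069), esiFLI1 2 (0.070), esiUSP9X 1 (0.18) or esiUSP9X 2 (0.072). The same 4 libraries each ended the calls of PDLIM7 (0.058, 0.13, 0.14 and 0.052) and TPM4 (0.13, 0.054, 0.20 and 0.16), and VASP was not called without esiFLI1 1 (0.064) or esiUSP9X 2 (0.068). The blocked count of lower members was 12 without esiFLI1 1, esiFLI1 2 or esiUSP9X 1, and 13 without esiUSP9X 2.

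Replicates 1 and 2 differed in these genes in every group, and the difference followed the base composition of the transcript. In 27 of the 41 members replicate 2 was below replicate 1 in all 3 groups, in 11 it was above in all 3, and 3 were mixed. Over all 12169 tested genes the deviations of same-numbered libraries also correlated between groups (0.589 to 0.647). A replicate difference is thus not particular to the members. These counts and the comparison with GC content were not made over all genes. FSCN1, with 65.0% GC in its longest coding transcript, was 223 and 93.4 FPKM in esiGFP, 194 and 85.7 in esiFLI1, and 149 and 75.2 in esiUSP9X. CFL2, with 37.7% GC, was 51.5 and 69.0 in esiGFP, 50.4 and 84.6 in esiFLI1, and 49.1 and 68.3 in esiUSP9X. Replicate 2 was thus far lower for the first and higher for the second in each group. The mean difference of replicate 2 from replicate 1 ranged from -1.13 (FSCN1) to 0.54 (CFL2). Across the 41 genes, which share the same 6 libraries and are not independent, its correlation with GC content was -0.85 (Pearson) and -0.80 (Spearman). The change in esiFLI1 had correlations of -0.16 and -0.14 with GC content over the same genes. What set the replicates apart was not tested.

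**Figure D4:**
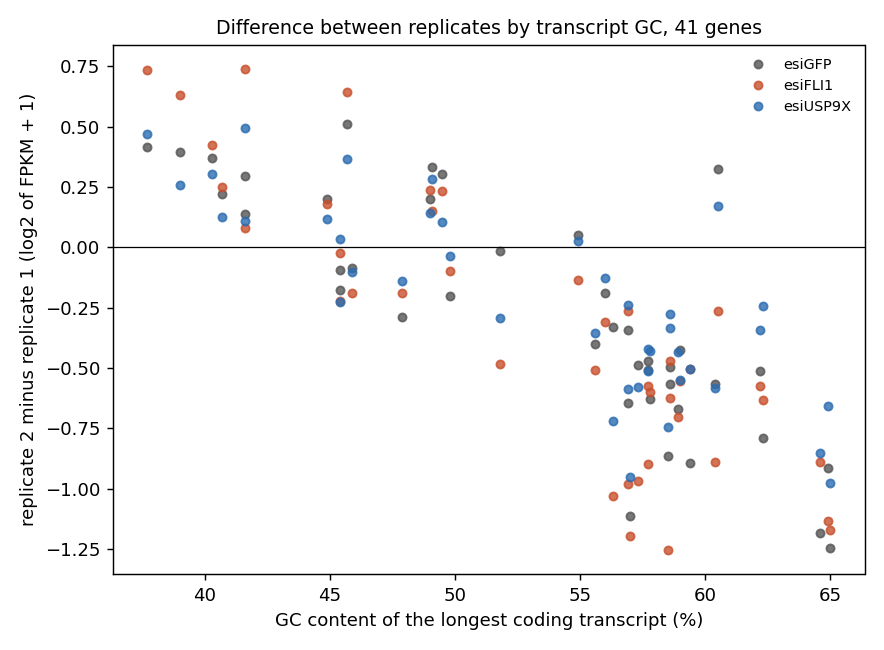
Difference of replicate 2 from replicate 1 (log2 of FPKM + 1) against the GC content of the longest coding transcript (percent), with 1 point for each of 41 genes and each group. Points fall from above 0 at the left, with CFL2 at 37.7% GC, to near -1 at the right, with FSCN1 at 65.0% GC, in all 3 groups.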

How the data were processed

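RNA-seq of 6 A673 libraries (75-nt single-end reads from 2 µg of total RNA, then depleted of ribosomal RNA, per the labels' protocols) was used as FPKM deposited by the authors, one column per library. Cufflinks, Cuffdiff and TopHat are listed in the submitters' processing notes, with hg19 and GRCh37 as builds. Their versions, the annotation and strand use: not given in the sources used here. The table ended in 1 line that is no gene, which was left out. Depth is unknown, so no counting intervals are given.

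The 12169 genes that reached 1 FPKM in 2 or more libraries were fitted as log2(FPKM + 1) with limma 3.58.1 in R 4.3.3 (eBayes with trend), with 3 group means and all 6 libraries, two-sided, with Benjamini-Hochberg adjustment. The same model was also fitted with the replicate number as a block. The labels share numbers but no day; same-numbered deviations correlated between groups across genes (0.647, 0.589 and 0.644), so the pairing comes from the data. Residual degrees of freedom were 3 and 2, prior ones 2.21 and 5.72. The script was tested on simulated data. GC content came from GENCODE 29, with all 41 symbols matched.

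Members, lists and alternatives were chosen with earlier results of these data known. The rule for naming took, per role, up to 5 members called in either fit with the largest change in esiFLI1, the member with the highest mean FPKM, members called in another comparison, and the 3 largest called genes of each other list. The result of 1 further gene list is not reported here. The CArG and GGAA searches, the GC comparison and the blocked fit of only 4 libraries were added after values were seen.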

Additional observations from a re-analysis of the deposited data

How the results depend on the processing

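With the replicate block, the counts of called members in esiFLI1 against esiGFP went from 4 to 17 higher and from 0 to 5 lower, in esiUSP9X against esiGFP from 0 to 1 higher, and in esiUSP9X against esiFLI1 from 0 to 3 higher and from 4 to 19 lower. The 17 and the 19 include CNN1, whose direction the filter fixed. In the same order, the blocked counts were 19, 2, 1, 4 and 22 with quantile normalization, 15, 6, 1, 5 and 18 with median-ratio scaling, and 17, 5, 1, 3 and 19 with a pseudocount of 0.1 FPKM. Without a block, a fit of only the 4 libraries compared ended the calls of TPM1, MYL9, SVIL and VCL in esiFLI1 against esiGFP. In esiUSP9X against esiFLI1 such a fit called 1 lower member, TPM1. Leaving out 1 library also left fewer calls without a block in both comparisons. With the replicate block, leaving out 1 library gave 12 to 16 higher (15 and 14 without esiGFP 1 and 2) and 2 to 4 lower members in esiFLI1 against esiGFP, 0 to 1 higher and 0 to 2 lower in esiUSP9X against esiGFP, and 1 to 4 higher and 12 to 18 lower in esiUSP9X against esiFLI1. These fits left few degrees of freedom (1 residual with the block), and the lone sample is assumed to vary like the other groups. Of the 22 blocked calls in esiFLI1, 13 (11 higher and 2 lower) stayed called in all 11 blocked settings, or 12 (10 higher) without CNN1, whose direction the filter fixed. No called member changed sign under any setting. Filters on low values (none, or 5 FPKM) left the unblocked counts within 1.5 times. Unknown depth limits low genes such as CNN1, and 2 libraries a group limit every test.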
